A study of Homo sapiens with 6 samples.

Results

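Bidirectional promoters of protein-coding genes were examined for DNA double-strand breaks in HCT116 cells, a human colorectal carcinoma line, after short treatment with camptothecin (CPT). A bidirectional promoter was defined as a pair of protein-coding genes of chromosomes 1 to 22 that lie on opposite strands, are transcribed away from each other and have 5′ ends at most 1000 bp apart. In the GENCODE annotation of GRCh37 (hg19), 798 such pairs were found, holding 1596 of 19229 protein-coding genes (8.30%). Each pair was read as 2 arms, the first 5 kb inside the minus-strand gene and the first 5 kb inside the plus-strand gene, and the interval between the 5′ ends. The comparison class was 7220 single promoters, protein-coding genes with no other 5′ end of any annotated gene within 10 kb. Pairs were not held to this condition, and 427 of the 798 met it, with no further 5′ end within 10 kb outside the pair.

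The study treated cells with 10 μM CPT for 10 or 20 min and kept an untreated control, with 2 biological replicates in each of the 3 groups and murine pre-B cells added to every sample as a spike-in. Sample titles write the later time as a dose of 20 μM, whereas the treatment protocol and the design text give 10 μM for both times, and the latter was used. For each of the 4 treated libraries a forward-strand and a reverse-strand peak list were available. The untreated libraries entered only as the background of the peak calling, so the flanks of the same pairs, 20 to 50 kb outside the 5′ ends, served as the reference level.

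CPT traps topoisomerase I, the enzyme that relieves supercoiling ahead of and behind the transcription machinery, in the act of cutting one DNA strand. Trapped enzymes can be turned into double-strand breaks when they meet transcription or replication. At a bidirectional promoter, RNA polymerases start from a shared nucleosome-free region and move outward on both sides, so negative supercoiling from both genes meets between them. Such promoters are typically rich in CpG dinucleotides, seldom hold a TATA box and often drive housekeeping, DNA repair and replication genes. END-seq ligates an adapter to the blunted ends of a break, so that sequenced DNA to the left of a break gives a reverse-strand peak and DNA to its right a forward-strand peak. Only the summit of each peak, its position of highest signal, was counted here.

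The lists held between 286491 and 826744 peaks. In the first 10-min replicate the reverse list (826744 peaks) was longer than the forward list (591881), and the second 20-min replicate had the shortest lists (288607 and 286491). Densities are therefore given as summits per Mb per 1000 peaks of the library, and comparisons of strands divide each strand by its own list. Read depth was not used here, and the intervals below cover counting error only.

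The 5′ ends of the 798 pairs were 1 to 995 bp apart, with a median of 127 bp and quartiles of 68 and 238 bp. They were at most 100 bp apart in 317 pairs, above 100 and up to 300 bp in 338, and above 300 bp in 143. In the 1 kb around the promoter, 650 pairs (81.5%) were CpG-rich (CpG observed over expected of at least 0.6 and GC of at least 55%), against 3312 single promoters (45.9%). The intervals between the 5′ ends of 9 pairs are printed here because these pairs either ranked highest for END-seq summits, had summits mostly on 1 arm or are textbook examples. Each is the plus strand of GRCh37, read from the genome sequence, so the minus-strand gene of the pair starts at the left and the plus-strand gene at the right. Capitals mark matches, on either strand, to the letters by which the SP1, NF-Y, ETS, NRF1, CRE and TATA elements were searched, spelled out with their frequencies after the sequences.
CBX5 and HNRNPA1, chr12:54673918-54673976: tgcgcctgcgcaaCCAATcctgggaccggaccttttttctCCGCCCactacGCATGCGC
RPL18 and SPHK2, chr19:49122442-49122547: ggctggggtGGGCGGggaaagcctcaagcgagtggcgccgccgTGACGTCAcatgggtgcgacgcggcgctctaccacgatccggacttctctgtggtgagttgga
TADA3 and ARPC4-TTLL3, chr3:9834696-9834765: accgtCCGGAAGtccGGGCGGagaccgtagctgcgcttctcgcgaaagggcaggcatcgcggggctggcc
KIF18A and METTL15, chr11:28129704-28129794: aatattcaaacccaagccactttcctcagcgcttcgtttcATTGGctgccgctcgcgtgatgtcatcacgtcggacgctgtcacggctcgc
TK1 and AFMID, chr17:76183315-76183438: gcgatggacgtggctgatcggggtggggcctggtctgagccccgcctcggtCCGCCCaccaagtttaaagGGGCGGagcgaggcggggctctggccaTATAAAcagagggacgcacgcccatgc
APTX and DNAJA1, chr9:33025129-33025270: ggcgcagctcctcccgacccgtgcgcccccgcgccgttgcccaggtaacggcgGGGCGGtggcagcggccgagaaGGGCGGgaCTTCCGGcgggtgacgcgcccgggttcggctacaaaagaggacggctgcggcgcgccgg
SRSF7 and GEMIN6, chr2:38978637-38978675: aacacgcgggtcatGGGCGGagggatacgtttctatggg
PPAT and PAICS, chr4:57301782-57301906: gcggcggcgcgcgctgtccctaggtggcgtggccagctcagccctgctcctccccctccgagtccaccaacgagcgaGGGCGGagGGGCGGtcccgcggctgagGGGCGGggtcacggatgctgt
SIRT3 and PSMD13, chr11:236932-236965: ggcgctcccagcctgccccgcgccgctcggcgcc
The SIRT3 and PSMD13 interval held none of these motifs, and that of TK1 and AFMID held a TATA match near the AFMID side, with SP1 matches on both strands. These are matches to letters and not shown to be bound.

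Windows of 300 bp were searched on both strands, centred between the 5′ ends of pairs and reaching from 250 bp before to 50 bp after the 5′ end of other genes. The letters CCGGAAG, the core that ETS factors bind, were found in 27.7% of pairs, 7.78% of single promoters and 11.9% of all protein-coding promoters. The NRF1 element, searched as GCATGCGC, was found in 8.77% of pairs, 2.58% of single promoters and 3.65% of all protein-coding promoters. The SP1 box, searched as GGGCGG, was found in 71.7% of pairs, 46.9% of single promoters and 52.4% of all protein-coding promoters. For the NF-Y box, searched as CCAAT, the shares were 40.4%, 34.6% and 35.5% in the same order. For the cyclic AMP response element, searched as TGACGTCA, they were 3.88%, 1.97% and 2.28%. The TATA box, searched as TATAAA, went the other way, with 4.89% of pairs, 12.9% of single promoters and 11.0% of all protein-coding promoters. None of these letter strings contains another, and matches of different strings were counted independently. The YY1 element, searched as AAGATGG, was found in 9.15% of pairs, 4.92% of single promoters and 5.53% of all protein-coding promoters. Mean arm density over the 4 libraries was higher in pairs with the motif than without for each of the 7 motifs, with no test. The smallest gaps were 0.622 per Mb per 1000 peaks with the NF-Y letters against 0.608 without, and 0.619 against 0.601 for SP1. The widest were 0.687 against 0.611 for the cyclic AMP response element, in 31 pairs, and 0.665 against 0.611 for the TATA box, in 39 pairs. For ETS the values were 0.650 and 0.60. In single libraries the order was reversed for NF-Y in the first 20-min replicate (0.674 with against 0.685 without). It was also reversed for NRF1 in the second 10-min replicate (0.501 with against 0.505 without).

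END-seq summits were denser on the arms of gene pairs than over the first 5 kb of single promoters in each library. Arm densities were 0.569 and 0.505 summits per Mb per 1000 peaks in the 10-min replicates and 0.680 and 0.702 in the 20-min replicates. The first 5 kb of single promoters held 0.435, 0.406, 0.502 and 0.483 in the same order. The arms thus stood 1.31, 1.24, 1.36 and 1.46 times higher than single promoters (mean log2 ratio 0.42, SD 0.10, n = 4 libraries). An exact two-sided sign-flip permutation test over the 4 libraries gave p = 0.13, the smallest p that 4 libraries allow, so no comparison within libraries could pass 0.05. The permutation tests on all summits at the main settings, 14 with the 1 between times, were adjusted together. The Benjamini-Hochberg adjusted value of each permutation p of 0.13 among them was 0.159. Permutation tests of strong summits and of alternative settings were outside this adjustment.

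The difference was smaller between promoters of like CpG content and after division by the regional level. Among CpG-rich promoters the mean log2 ratio of arms to single promoters was 0.20 (1.15-fold), again above 0 in 4 of 4 libraries. With only the 427 pairs that had no other 5′ end within 10 kb, the mean log2 ratio was 0.36 (1.29-fold). The flanks of pairs held 0.440, 0.382, 0.492 and 0.405 summits per Mb per 1000 peaks, and the flanks of single promoters 0.392, 0.360, 0.423 and 0.370. Arms exceeded their own flanks 1.29-, 1.32-, 1.38- and 1.73-fold (mean log2 0.51, SD 0.19, exact permutation p = 0.13). After each class was divided by its own flanks, the arms exceeded single promoters 1.16-, 1.17-, 1.17- and 1.33-fold (mean log2 0.27, SD 0.09). With both, CpG-rich promoters divided by their own flanks, the mean log2 ratio was 0.099 (1.07-fold) for all summits and -0.025 for strong summits, those with a −log10 q of at least 10. Coding genes that face a noncoding gene at the same distance had similar levels, with 0.539, 0.549, 0.656 and 0.756 over the first 5 kb of 1282 such genes. Against these genes the log2 ratio of the pair arms averaged -0.02.

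**Figure D1:**
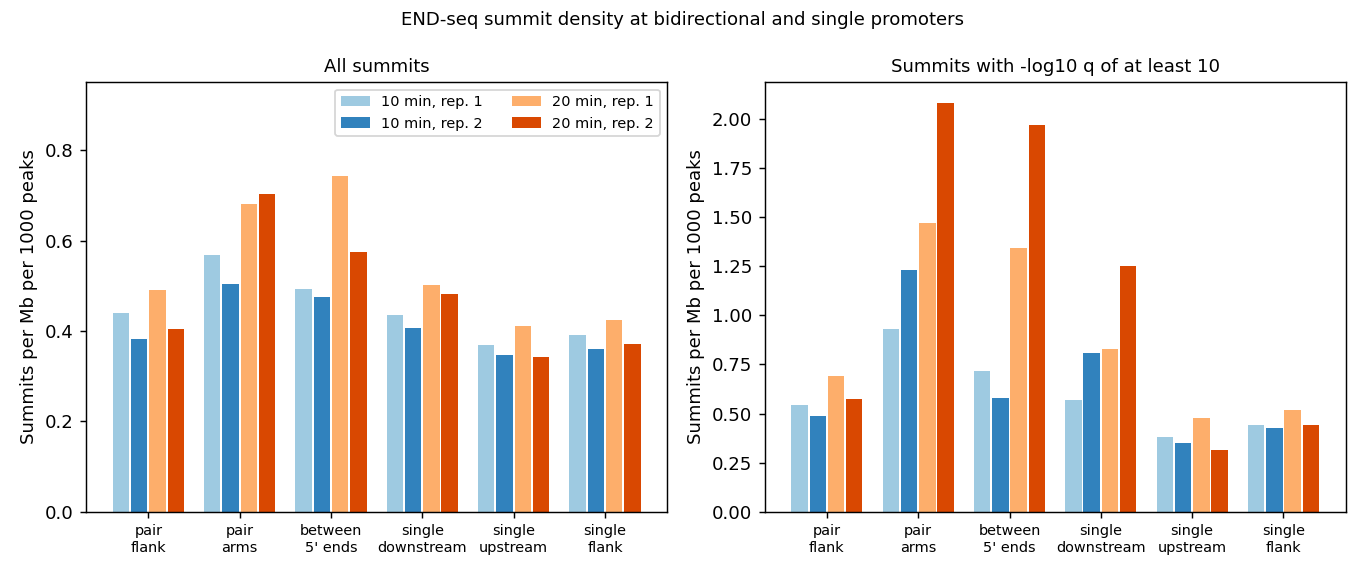
Summit density in summits per Mb per 1000 peaks (vertical axis) for pair flanks, pair arms, the interval between the 5′ ends, and the downstream side, upstream side and flanks of single promoters, with 1 bar per library, for all summits on the left and for summits with a −log10 q of at least 10 on the right. Pair arms stand above single promoters and above their own flanks in each of the 4 libraries, and the upstream side of single promoters lies below the downstream side.

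At single promoters the upstream side held fewer summits than the downstream side. Upstream of single promoters the density was 0.369, 0.346, 0.411 and 0.342, which was 0.849, 0.852, 0.819 and 0.710 times the downstream density (mean log2 -0.31, SD 0.12, exact permutation p = 0.13). A pair replaces that side with another gene, and over both sides together pairs held 1.41, 1.34, 1.49 and 1.70 times the density of single promoters. The contrast was larger for strong summits, scaled to the number of such peaks. With them the arms exceeded single promoters 1.63-, 1.52-, 1.77- and 1.67-fold, and exceeded their own flanks 1.71-, 2.53-, 2.12- and 3.62-fold.

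Between the 5′ ends, density did not differ from that of the 5-kb arms beyond the spread between libraries. The 154 kb of intervals held 108 and 77 summits in the 10-min replicates and 140 and 51 in the 20-min replicates, or 0.493, 0.474, 0.742 and 0.574 per Mb per 1000 peaks. Relative to the arms these were ratios of 0.867, 0.939, 1.09 and 0.818, on both sides of 1 (mean log2 -0.12, SD 0.18, exact permutation p = 0.375). Against arms of 2 kb the log2 ratio was below 0 in each library, at -0.307, -0.213, -0.006 and -0.476. For strong summits, on the few counts given below, it was -0.376, -1.08, -0.129 and -0.080 against the 5-kb arms. Forward summits were 42.6%, 44.2%, 51.4% and 49.0% of those in the interval. Forward peaks made up 41.7%, 50.2%, 50.1% and 50.2% of the lists as a whole, and each of these lay within the 95% Wilson interval of the share between the 5′ ends. Strong summits there numbered 24, 2, 29 and 5, too few to place within the interval.

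The strand of the summits changed along the arm. Sense summits are those on the strand of the gene, forward on the plus-strand arm and reverse on the minus-strand arm, which place sequenced DNA on the side of the break away from the promoter. In the first 1 kb of the arms, sense over antisense was 0.914, 0.801, 0.730 and 0.741, an excess of antisense summits in 4 of 4 libraries (mean log2 -0.33, SD 0.15, exact permutation p = 0.13). From 1 to 5 kb the ratio was 1.10, 1.20, 1.13 and 1.19, an excess of sense summits in 4 of 4 libraries (mean log2 0.21, SD 0.06, exact permutation p = 0.13). Over the whole arm these parts nearly cancelled, with 1.06, 1.10, 1.03 and 1.08 (mean log2 0.09), and that small excess changed sign with strong summits (mean log2 -0.03) and with 2-kb arms (mean log2 -0.06).

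Single promoters shared the antisense excess near the start but not the later sense excess. Their first 1 kb gave 0.822, 0.746, 0.719 and 0.558, and their 1 to 5 kb gave 1.00, 0.976, 0.979 and 0.923. The difference between pairs and single promoters from 1 to 5 kb was 0.25 on the log2 scale (SD 0.10, n = 4 libraries, exact permutation p = 0.13) and was above 0 in each library. With strong summits it was 0.51. Genes facing a noncoding gene gave 0.984, 0.989, 0.962 and 0.943 from 1 to 5 kb, close to single promoters and below the pair arms in each library. Upstream of single promoters, from 1 to 5 kb, summits on the strand leading away from the promoter exceeded the others 1.13-, 1.14-, 1.12- and 1.13-fold, and upstream of genes facing a noncoding gene 1.29-, 1.30-, 1.23- and 1.43-fold.

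**Figure D2:**
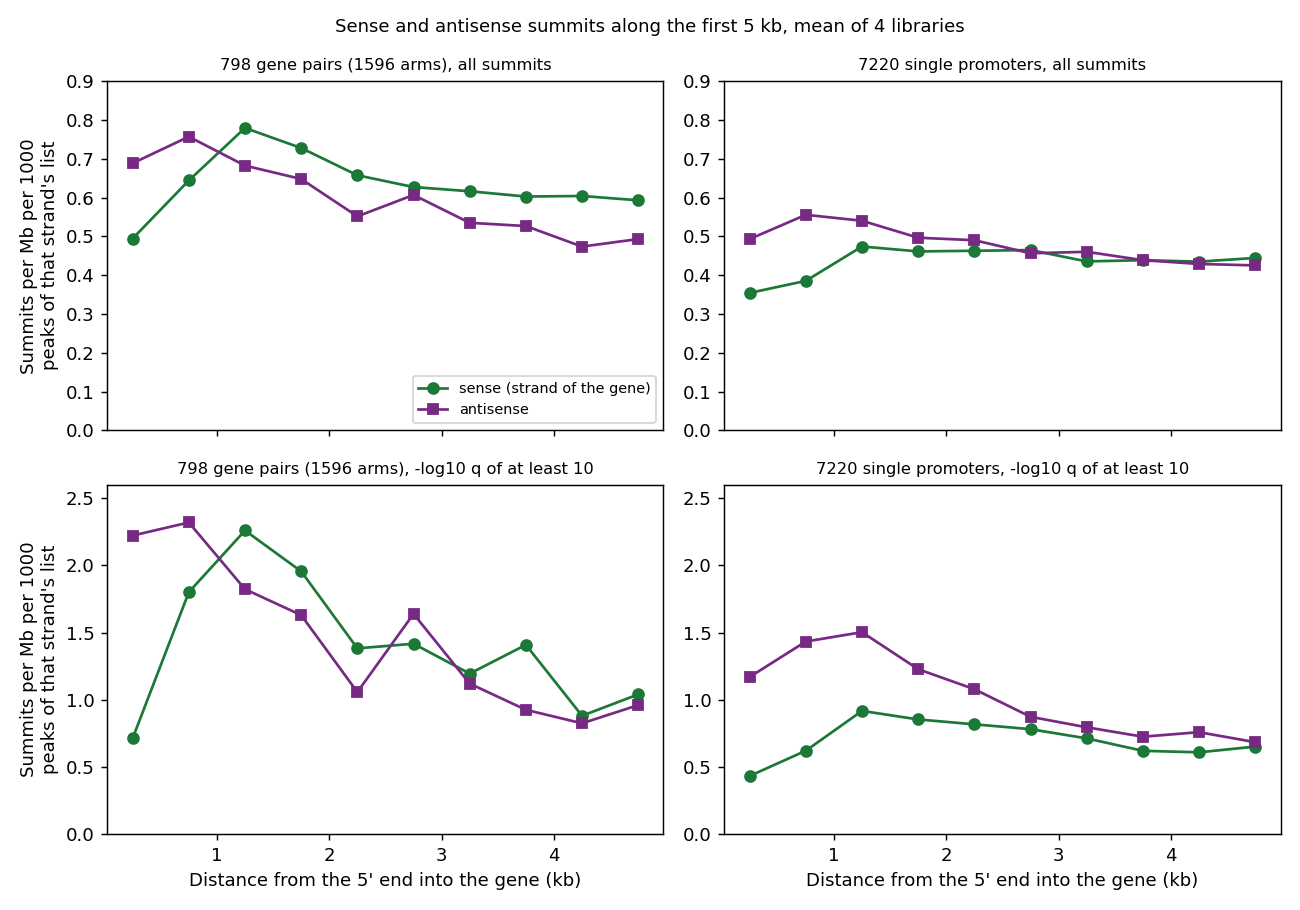
Density of sense and antisense summits (vertical axes, summits per Mb per 1000 peaks of that strand's list, mean of 4 libraries) against distance from the 5′ end into the gene in bins of 500 bp, for pair arms on the left and single promoters on the right, with all summits above and strong summits below. On pair arms antisense summits lead in the first 1 kb and sense summits lead from 1000 bp on, except in the bin from 2500 to 3000 bp for strong summits.

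In bins of 500 bp, averaged over the 4 libraries, the sense over antisense ratio on pair arms ran from 0.718 in the first bin to 1.14 between 1000 and 1500 bp and 1.20 in the last bin. Total density was highest between 1000 and 1500 bp, at 0.731, against 0.591 in the first bin and 0.543 in the last. For strong summits the first bin held 0.714 sense and 2.22 antisense summits per Mb per 1000 peaks. The arms were also read separately. In the first 1 kb, forward over reverse was 1.28, 1.24, 1.32 and 1.38 on minus-strand arms and 1.07, 0.792, 0.703 and 0.759 on plus-strand arms. From 1 to 5 kb it was 0.992, 0.815, 0.906 and 0.904 on minus-strand arms and 1.20, 1.17, 1.15 and 1.29 on plus-strand arms. The first 10-min replicate, whose lists were unequal in length, was the library with a value above 1 on the plus-strand arms near the start. For strong summits in the first 1 kb, forward over reverse was above 1 on minus-strand arms and below 1 on plus-strand arms in each library. This included the plus-strand arms of the first 10-min replicate (0.771). From 1 to 5 kb it was below 1 on minus-strand arms and above 1 on plus-strand arms. The plus-strand arms of the second 10-min replicate were the exception (0.872). Strong summits were much scarcer in the second replicates. In the order of libraries, minus-strand arms held 855, 125, 834 and 144 and plus-strand arms 754, 94, 805 and 129. Means over libraries weight these libraries equally.

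**Figure D3:**
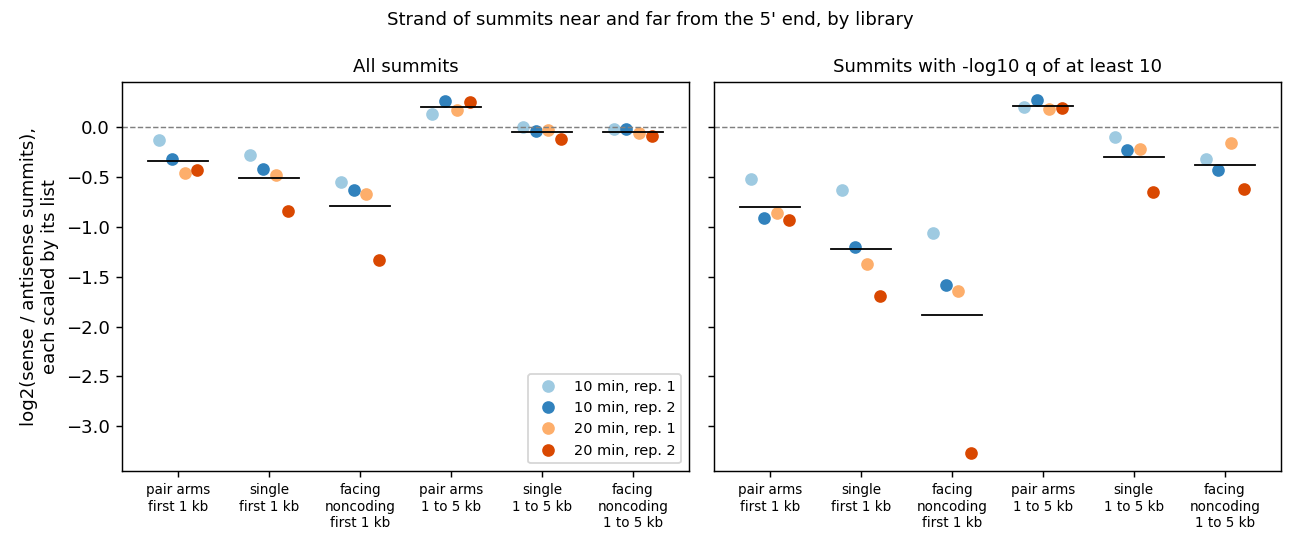
Log2 ratio of sense to antisense summits (vertical axis), each scaled by its list, in the first 1 kb and from 1 to 5 kb for pair arms, single promoters and coding genes facing a noncoding gene, with 1 point per library and a line at the mean. From 1 to 5 kb the pair arms lie above 0 in each of the 4 libraries for all summits (left) and for strong summits (right).

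Arm density was higher at 20 than at 10 min, with 0.505 and 0.569 against 0.680 and 0.702 and no overlap between the times. This was not particular to pairs, since the first 5 kb of single promoters held 0.435 and 0.406 against 0.502 and 0.483, also without overlap. On the arms the log2 difference was 0.37, and the exact two-sided permutation test gave p = 0.33, the smallest that 2 against 2 libraries allow. With each list limited to the length of the shortest, the log2 densities of the times overlapped (-0.42 and -0.80 against -0.13 and -0.51), and the log2 difference was 0.29 (exact permutation p = 0.67). Flank densities overlapped between the times. Because the values are scaled to each library's own number of peaks, they do not say whether breaks as such became more frequent.

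A gene was counted as holding a replicated strong summit when its first 5 kb had a summit with a −log10 q of at least 10 in both replicates of a time. The summits did not need to share position or strand. In the order of libraries, 487, 96, 446 and 104 of the 798 minus-strand arms and 430, 75, 448 and 94 plus-strand arms held a strong summit. The second replicates thus limited the calls, and the overlap expected from unrelated replicates was not worked out. At 10 min this was met by 139 of 1596 pair arms, or 8.71% (95% Wilson interval 7.42 to 10.2%), against 6.96% of all protein-coding genes and 4.89% of single promoters (4.42 to 5.41%). At 20 min it was met by 172 arms, or 10.8% (9.35 to 12.4%), against 8.35% of all protein-coding genes and 6.04% of single promoters. At both times it was met by 66 arms, or 4.14%, against 3.53% of all protein-coding genes and 2.2% of single promoters. The shares of arms were thus nearer to those of all protein-coding genes than to those of single promoters. Among CpG-rich promoters, arms and single promoters stood at 9.54% and 7.49% at 10 min and at 11.6% and 9.96% at 20 min, with overlapping intervals at both times. Genes facing a noncoding gene reached 11.9% and 13.1%.

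**Figure D4:**
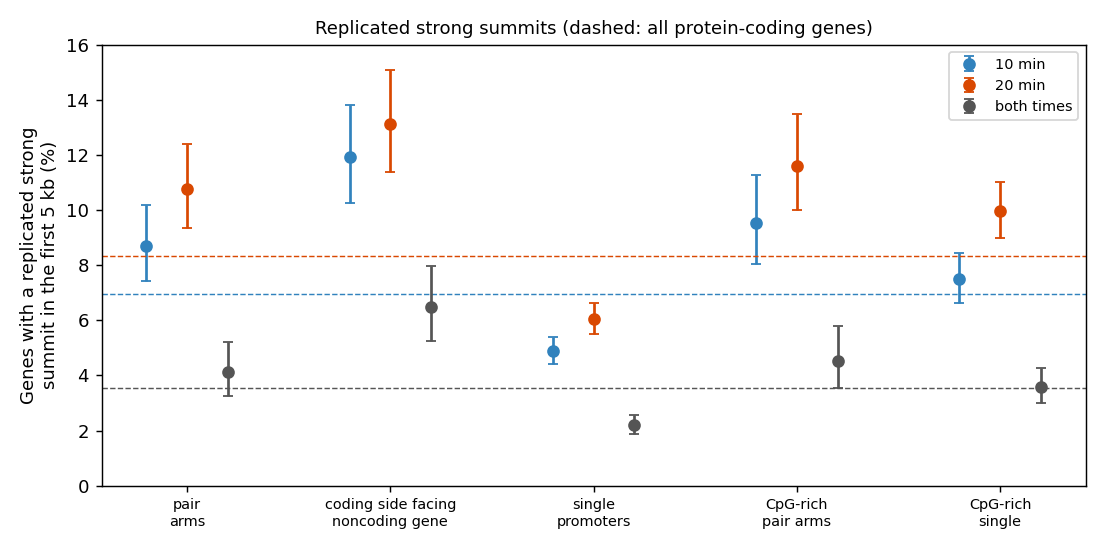
Share of genes with a replicated strong summit in the first 5 kb (vertical axis, percent) by promoter class at 10 min, 20 min and both times, with 95% Wilson intervals as bars and the share of all protein-coding genes as dashed lines. Pair arms stand above single promoters at 10 min, at 20 min and at both times, and CpG-rich pair arms and CpG-rich single promoters have overlapping intervals.

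Replicated strong summits were counted by arm. At 10 min 10 pairs had a replicated strong summit on both arms, 119 on 1 arm and 669 on neither. At 20 min these numbers were 20, 132 and 646. The minus-strand arm held one in 25.3% (17.0 to 35.9%) of the 79 pairs whose plus-strand arm did and in 10.2% (8.15 to 12.6%) of the other 719. At 10 min the corresponding shares were 16.7% of 60 and 9.35% of 738. Counts on the arms of a pair were weakly related across pairs, with Spearman's rho of 0.275, 0.178, 0.257 and 0.207 in the 4 libraries (798 pairs that share libraries and regional level). The upstream and downstream sides of single promoters gave 0.236, 0.141, 0.287 and 0.108.

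A reverse peak that a forward peak overlapped, or followed less than 150 bp to its right, as the ends of a break would leave, was joined with it into a break site, and sites that overlapped between replicates were counted as replicated. The arms held 879, 406, 1106 and 307 such sites, on 38.4%, 19.9%, 46.0% and 15.8% of arms, against 25.6%, 13.5%, 27.7% and 7.81% of single promoters. Replicated sites numbered 95 on 83 arms at 10 min (5.20% against 2.85% of single promoters) and 133 on 117 arms at 20 min (7.33% against 3.37%). Shares of break sites were not worked out for all protein-coding genes, for CpG-rich promoters or for genes facing a noncoding gene. Whether the contrast with single promoters is particular to gene pairs was therefore not tested. In the intervals between the 5′ ends there were 3 replicated sites at 10 min and 0 at 20 min.

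Shorter genes of a pair held more summits than longer ones. The arms of the longer genes held 3037, 1974, 3074 and 1414 summits and those of the shorter genes 3400, 2262, 3561 and 1809, ratios of 0.893, 0.873, 0.863 and 0.782 (mean log2 -0.23, SD 0.08, exact permutation p = 0.13). For strong summits the ratios were 0.755, 0.647, 0.709 and 0.551. By gene length, mean arm density over the 4 libraries was 0.752 in the 149 genes under 5 kb, 0.630 from 5 to 20 kb, 0.607 from 20 to 100 kb and 0.511 in the 223 genes over 100 kb. Single promoters did not show this order, with 0.380, 0.456, 0.498 and 0.414. An arm of a gene under 5 kb runs past its 3′ end, so it also covers what lies beyond. Density by distance between the 5′ ends was 0.615 up to 100 bp, 0.637 from there to 300 bp and 0.557 above 300 bp.

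Individual pairs carried few summits. The whole region of a pair held a median of 8, 5, 9 and 4 summits in the 4 libraries and at most 20, 18, 23 and 18. The counts of named pairs are not divided by the regional level. Across pairs, region and flanks were related, with Spearman's rho of 0.415, 0.288, 0.497 and 0.250, so a high count may partly be regional, which was not tested. The pair with CBX5, which encodes a heterochromatin protein, and HNRNPA1, which encodes a splicing regulator, stood among the highest. In the order of libraries used above, the CBX5 arm held 11, 2, 11 and 4 summits and the HNRNPA1 arm 9, 9, 5 and 7, with none between the 5′ ends. The HNRNPA1 arm had strong summits in each library, with a highest −log10 q of 39.3, 76.3, 88.6 and 74.2. On the CBX5 arm the highest values were 68.5, 8.4, 22.3 and 14.5, so that it had a replicated strong summit at 20 min and not at 10 min.

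The pair of RPL18, a protein of the large ribosomal subunit, and SPHK2, a sphingosine kinase, was uneven. The RPL18 arm held 8, 10, 11 and 9 summits and the SPHK2 arm 8, 1, 4 and 1. TK1, the S-phase thymidine kinase, held 11, 7, 9 and 8, and AFMID, an enzyme of tryptophan breakdown, 5, 3, 7 and 2. The longer flanks of this pair, 20 to 50 kb out, held 30, 14, 31 and 13 on the TK1 side and 36, 17, 35 and 14 on the AFMID side. DNAJA1, a co-chaperone of heat shock proteins, held 10, 11, 6 and 9, and APTX, a DNA strand-break repair protein, 4, 3, 8 and 1. TK1, RPL18 and DNAJA1 had replicated strong summits at both times, AFMID had one at 10 min and not at 20 min, and APTX and SPHK2 had none at either time.

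Other high-ranking pairs were more even. KIF18A, a mitotic kinesin, held 6, 9, 7 and 6 summits and METTL15, a mitochondrial ribosomal RNA methyltransferase, 10, 8, 7 and 4, and both arms had replicated strong summits at both times. TIMM8B, a mitochondrial import chaperone, held 11, 5, 7 and 5, and SDHD, a subunit of succinate dehydrogenase, 6, 5, 8 and 4. PARN, a poly(A) ribonuclease, held 7, 8, 8 and 7 and BFAR, a regulator of apoptosis, 7, 4, 8 and 2. TADA3, a subunit of histone acetyltransferase complexes, held 6, 4, 5 and 6 and the readthrough gene ARPC4-TTLL3 9, 7, 9 and 5, in which summits belong equally to ARPC4. By the density of the weaker arm, the best ranked pairs also included ATP5MK with PDCD11 (8, 5, 7 and 8 against 10, 5, 8 and 8) and USP37 with CNOT9 (8, 5, 6 and 4 against 10, 6, 8 and 4). C11orf98 with CSKMT completed that set (9, 4, 6 and 3 against 11, 4, 6 and 5), in 2 genes shorter than their arms. RPL18 (3857 bp) and TIMM8B (1999 bp) above are also shorter than the arm. The same holds for TXNDC17 (3557 bp), FEN1 (4328 bp) and MRPS12 (2225 bp) below. Counts for these genes therefore include what lies past their 3′ ends.

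The 4 pairs described next were chosen for the largest difference between arms that had the same direction in the 4 libraries, so their direction is part of the choice. SRSF7, a splicing factor of the SR family, held 10, 12, 10 and 9 summits, whereas GEMIN6, a component of the SMN complex that assembles small nuclear ribonucleoproteins, held 3, 1, 4 and 0. TXNDC17, a thioredoxin-like protein, held 8, 6, 8 and 7 against 1, 1, 2 and 0 on KIAA0753, a centriolar satellite protein. ENY2, of the SAGA and mRNA export complexes, held 9, 8, 9 and 8 against 3, 4, 3 and 1 on NUDCD1. PGAM1, the glycolytic phosphoglycerate mutase, held 7, 5, 8 and 4 against 1 in each library on RRP12, a ribosome biogenesis factor. In each of these 4 pairs the richer arm was that of the shorter gene.

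**Figure D5:**
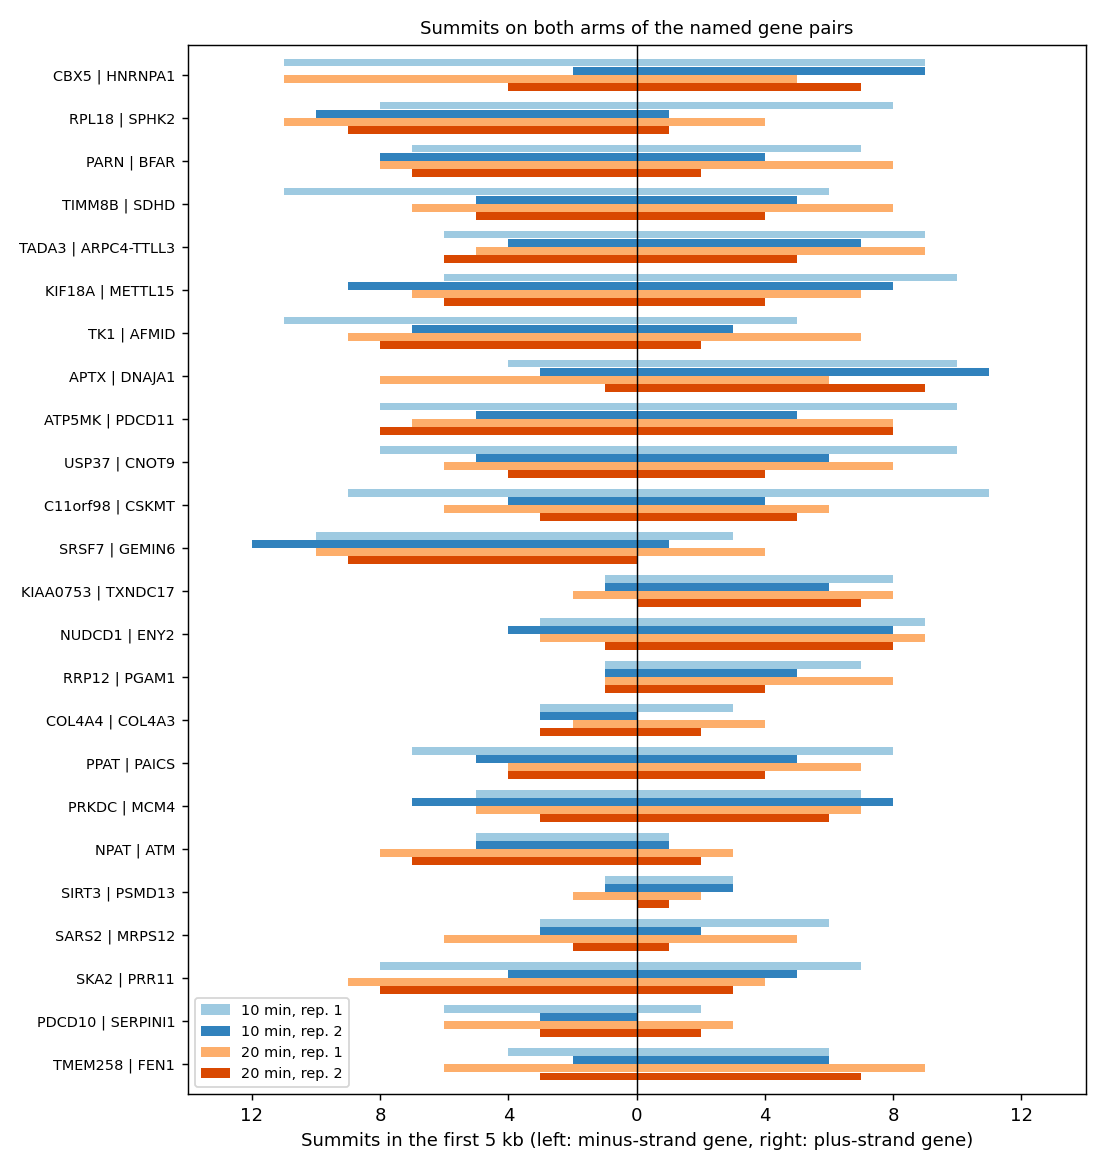
Summits in the first 5 kb (horizontal axis, counts) of the minus-strand gene to the left and the plus-strand gene to the right for 24 named pairs, with 1 bar per library. The upper pairs hold summits on both arms, whereas SRSF7, TXNDC17, ENY2 and PGAM1 hold most of theirs on 1 arm.

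Of 17 textbook bidirectional pairs looked up, 10 met the definition, and the other 7, such as HSPD1 with HSPE1, had overlapping 5′ ends in this annotation. PPAT and PAICS, which encode enzymes of purine synthesis, held 7, 5, 4 and 4 and 8, 5, 7 and 4 summits. PRKDC, the catalytic subunit of the DNA-dependent protein kinase, held 5, 7, 5 and 3, and MCM4, a subunit of the replicative helicase, 7, 8, 7 and 6. NPAT, an activator of histone gene transcription, held 5, 5, 8 and 7 against 1, 1, 3 and 2 on ATM, the kinase that responds to double-strand breaks. FEN1, the flap endonuclease of DNA replication, held 6, 6, 9 and 7 and TMEM258, a subunit of oligosaccharyltransferase, 4, 2, 6 and 3. SKA2, a kinetochore protein, held 8, 4, 9 and 8 and PRR11 7, 5, 4 and 3.

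Low textbook pairs were also seen. COL4A4 and COL4A3, collagen chains of specialised basement membranes, held 3, 3, 2 and 3 and 3, 0, 4 and 2. PDCD10 held 6, 3, 6 and 3 and SERPINI1, a neuronal serine protease inhibitor, 2, 0, 3 and 2. SARS2, the mitochondrial seryl-tRNA synthetase, held 3, 3, 6 and 2 and MRPS12, of the small mitochondrial ribosomal subunit, 6, 2, 5 and 1. SIRT3, a mitochondrial deacetylase, held 1, 1, 2 and 0 and PSMD13, a proteasome subunit, 3, 3, 2 and 1. None of these 4 pairs had a replicated strong summit on either arm.

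Of 143 annotated genes on a list of DNA repair and replication genes, 47 (32.9%) lay in bidirectional pairs, against 8.30% of all protein-coding genes. Replicated strong summits were present on 11 of these 47 arms at 10 min and 13 at 20 min (23.4% and 27.7%, against 8.71% and 10.8% of all pair arms). Of the 96 listed genes outside pairs 16 held one at 10 min and 21 at 20 min (16.7% and 21.9%), and the difference from those in pairs was not tested. At both times they were present on PCNA, the sliding clamp, on MCM2 and MCM4 of the replicative helicase, on the RECQL4 helicase, on RAD51C of homologous recombination, and on TK1 and FEN1. PCNA held 6, 3, 7 and 3 summits with a highest −log10 q of 18.6, 22.9, 30.6 and 36.4. RAD51C held 5, 8, 8 and 2, with 22.2, 13.2, 61.4 and 19.9. MCM2 held 6, 6, 9 and 3, with 80.0, 13.2, 15.1 and 12.0. BRCA1, of homologous recombination, held 3, 3, 5 and 3 and passed at 20 min only, as did APEX1, the abasic-site endonuclease, with 9, 7, 7 and 6. The median count over the 47 arms was 4, 3, 5 and 3, against 4, 2, 4 and 2 over all pair arms.

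Histone pairs held replicated strong summits mostly on H2A genes. Of 64 replication-dependent histone genes, 22 lay in pairs, typically an H2A gene facing an H2B gene, and 11 of these arms at 10 min and 8 at 20 min held a replicated strong summit (at 20 min 36.4%, against 10.8% of all pair arms, and at 10 min 11 of 22 against 8.71%). Of the 42 histone genes outside pairs 11 did so at 10 min and 16 at 20 min (26.2% and 38.1%). The median count on the 22 arms was 4, 3, 4 and 3. At 10 min H2BC12 and H2BC21 were the H2B genes among them, and at 20 min H2BC4. The 7 arms that held one at both times were all H2A genes, H2AC6, H2AC11, H2AC13, H2AC14, H2AC15, H2AC17 and H2AC20. H2AC15 held 4, 6, 5 and 4 summits, with a highest −log10 q of 197, 66.9, 164 and 70.5, and H2AC20 held 7, 4, 4 and 5, with 54.2, 24.4, 143 and 22.7. H2AC13 and H2AC14 had the same highest values (42.6, 14.5, 26.5 and 18.5), since their arms face each other and overlap. These genes are shorter than the arm and have near-identical copies, so reads that could not be placed uniquely were lost before peak calling.

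The remaining lists had few members in pairs. Of 48 chaperone genes 13 lay in pairs, with replicated strong summits on 5 arms at 10 min and 3 at 20 min, DNAJA1, CCT6A and TCP1 (38.5% and 23.1%), and a median count of 6, 3, 6 and 3. Of the 35 chaperone genes outside pairs 11 held one at 10 min and 9 at 20 min (31.4% and 25.7%). Of 78 mitochondrial ribosomal protein genes 17 lay in pairs, with 0 at 10 min and 1 at 20 min, MRPL10 (5.88%), and a median of 4, 2, 5 and 3, against 6 and 8 of the 61 outside pairs. Of 39 proteasome subunit genes 4 lay in pairs, with 0 at either time and a median of 3, 3.5, 3 and 2.5, against 7 and 9 of the 35 outside pairs. For comparison, 8.71% and 10.8% of all pair arms and 6.96% and 8.35% of all protein-coding genes held one at 10 and 20 min.

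In 13 pairs no summit was found in any list. Of these, 12 were all the pairs on chromosome 6 between positions 29424848 and 33257079, the region of the major histocompatibility complex, among them VPS52 with RPS18, WDR46 with PFDN6 and NELFE with SKIC2. Their flanks were also without summits in 12 of the 13 pairs. The lists held 128 peaks on alternative chromosome 6 haplotype sequences. Whether these bear on the missing peaks was not tested, and a count of 0 there does not show that breaks were absent. Leaving out all regions whose flanks held no summit, 13 pairs and 97 single promoters, gave a mean log2 ratio of arms to single promoters of 0.43.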

How the data were processed

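END-seq libraries of HCT116 cells were processed by the authors as follows. Reads were trimmed with Trim Galore and aligned to hg19 with Bowtie2. SAMtools was used to keep properly paired alignments of MAPQ 30 or more, duplicates included, and to split them by orientation. MACS2 was run on each library and strand at a q-value threshold of 0.05 with the untreated library as input and replicates not pooled. The deposited peak lists give for each peak a score, a fold enrichment and its p-value and q-value as −log10. The score and fold enrichment were read and not used further. Of these columns, the −log10 q-value set the strong threshold of 10 and the −log10 p-value the alternative with lists of equal length.

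Genes were taken from GENCODE release 44 mapped to GRCh37. Where 5′ ends faced several genes, mutual nearest neighbours formed the pair, which left 798 of 859 combinations. Densities divide summit counts by length and by the number of peaks of the library. Libraries were the unit of each test: ratios were tested by exact two-sided sign-flip permutation over 4 libraries, and times by exact permutation of 2 against 2. Shares carry 95% Wilson intervals. Calculations used Python 3.11.15, NumPy 2.4.6, pandas 2.3.3 and SciPy 1.17.1 and were tested on simulated peaks with known density and strand ratios. Named pairs were the 8 with the best worst rank of region density over the libraries, the 5 with the best worst rank of the weaker arm, the 4 with the largest repeated difference between arms, the textbook pairs, and 3 with the fewest summits. The definition of the pairs and the gene lists were chosen with earlier results of these data known.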

Additional observations from a re-analysis of the deposited data

How the results depend on the processing

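Each result was recomputed under other peak positions, thresholds, list lengths, arm lengths, region filters and with single libraries left out. Of 174 alternative values over 12 results, 164 kept their direction (a share: stayed within 1.5 times), 6 changed sign and 4 shares moved further. Some of the 164 repeat the main value and say nothing on robustness. Weighting by chromosome does not enter the strand ratio, which stayed at 0.25. Limiting the list length left the shares of arms with replicated strong summits at 8.71% and 10.8%. Sizes varied among those that kept their direction. Arms against flanks ranged from 0.41 to 1.26 on the log2 scale, the upper value with strong summits, and upstream against downstream of single promoters from -1.14 to -0.25. Arms against single promoters after division by flanks fell from 0.27 to 0.099 among CpG-rich promoters. The excess of sense summits over the whole arm changed sign for summits with a −log10 q of at least 10 (-0.028), for 2-kb arms (-0.063) and for CpG-rich promoters with that threshold (-0.062, chosen after seeing the data). With the last setting, the excess of arms over single promoters after division by flanks was -0.025. Against coding genes facing a noncoding gene, also chosen after seeing the data, the arm ratio was -0.024 and the ratio after division by flanks -0.093. The cause was not tested. Replicated strong summits moved with their threshold by construction, to 41.9% of arms at 10 min and 41.7% at 20 min for a −log10 q of at least 5, and to 1.44% and 1.69% for at least 20.

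Leaving out each replicate in turn gave 0.38 to 0.46 for arms against single promoters, 0.28 to 0.45 for 20 against 10 min, and 0.21 to 0.29 for the strand difference from 1 to 5 kb, which ranged from 0.21 to 0.60 over its 19 alternatives. Replicate numbers are shared between the times, and the sample labels do not say that they pair samples. The study's list of sequencing indexes places an untreated, a 10-min and a 20-min sample in each of 2 experiments. Libraries of 1 experiment may thus be related, and the sign-flip tests, which take 4 libraries as separate units, do not allow for this. With the replicate number as a block the difference between times was again 0.37 (exact permutation p = 0.5, the smallest that 2 pairs allow). The strand comparisons of the first 1 kb and of 1 to 5 kb, and the class facing noncoding genes, were added after seeing the data. Peak lists give no read depth, which limits what a missing summit means.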
